A study of Saccharomyces cerevisiae with 41 samples.

Results

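Transcript levels were compared between snf1Δ rad23Δ budding yeast 30 min after UV and the same strain unirradiated. The strain lacks both the Snf1 kinase and the DNA repair factor Rad23. The comparison rests on 4 of the 41 arrays of the study, chosen by the strain, time and replicate in their labels: 2 arrays at 30 min and 2 unirradiated. All 5380 budding yeast probe sets that passed a filter on dim signal were tested, and they stand for 5337 genes. The study as a whole followed wild type and 5 deletion strains over 60 min after UV on Affymetrix Yeast 2.0 arrays.

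All strains are haploids of the YPH499 background. Irradiated cells were grown overnight in YPD, a rich medium with glucose, at 30 °C to an OD600 of 1.0, moved to water, given 100 J/m2 of UV-C, and left to recover in fresh YPD with shaking. Unirradiated cells were mock treated. No mock-treated sample at 30 min was among the arrays used here, so a change at 30 min also holds the passage through water and the recovery in fresh medium. Besides the double deletion at 30 min and unirradiated, 3 further strains were used at the same points, with 2 arrays in each group: snf1Δ, rad23Δ and wild type. The 2 arrays of the double deletion at 60 min served for the later course. The replicates are called biological, and the labels say nothing more, so the spread between them may be technical. The spread behind each p-value was pooled over all groups of the study with replicates, further strains and times included. Between replicates, the standard deviation of log2 signals ranged from 0.101 (snf1Δ at 15 min) to 0.529 (wild type at 60 min). In the double deletion it was 0.275 at 30 min and 0.249 in unirradiated cells.

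Snf1 is the budding yeast member of the AMP-activated kinase family. When glucose runs out it inactivates the Mig1 repressor and activates the transcription factors Adr1 and Cat8, and thereby allows the use of ethanol, acetate, lactate and fatty acids. Rad23 binds Rad4 in the complex that recognises UV photoproducts for nucleotide excision repair, and also carries ubiquitinated proteins to the proteasome. UV damage activates the Mec1, Rad53 and Dun1 kinases, which relieve the Crt1 repressor (encoded by RFX1) from genes of ribonucleotide reductase (RNR), the enzyme that makes deoxynucleotides.

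Values are GCRMA signals on the log2 scale, in which a difference of 1 is 2-fold. The deleted genes were at background or close to it. SNF1 had a signal of 2.31 and 2.32 at 30 min and 2.31 and 2.32 in unirradiated cells, and RAD23 had 2.11 and 1.92 at 30 min and 1.91 and 2.14 in unirradiated cells. On the 14 arrays of strains without SNF1 its signal stayed between 2.09 and 2.74, while the 27 remaining arrays had 10.69 to 11.92. For RAD23 the 12 arrays of deletion strains had 1.91 to 2.14 and the 29 remaining arrays had 12.01 to 13.49. HIS3, which is a common marker in gene deletions, was at 14.42 and 14.33 at 30 min and 13.74 and 13.84 in unirradiated cells, and rose by 0.58 ± 0.08. Genes of MATa cells were expressed: the a-factor gene MFA1 was at 14.23 and 14.26 at 30 min and 14.23 and 14.25 in unirradiated cells, and the α-factor receptor STE2 was at 13.64 and 13.88 and at 13.92 and 13.63. The α-factor gene MF(ALPHA)1 was at 2.11 and 2.13 against 2.12 and 2.12.

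Between the 2 arrays of a group, 130 probe sets were over 2-fold apart at 30 min and 72 in unirradiated cells. The 3′ minus 5′ signal, which grows as RNA degrades, was 0.05 and 0.12 for the control gene ACT1 at 30 min and 0.08 and 0.12 in unirradiated cells. It was 3.70 and 3.82 at 30 min against 3.46 and 3.07 for SRB4, 1.49 and 1.89 against 1.29 and 1.47 for WBP1, and 0.30 and 0.26 against 0.21 and 0.18 for TDH1. Of the 7 control genes, these 3 were higher at 30 min with no overlap, RIP1 was lower (0.14 and 0.21 against 0.23 and 0.23), and ACT1, SPT15 and EAF5 overlapped. The mean of 11 control probe sets for 18S ribosomal RNA was 9.10 and 7.93 at 30 min against 5.26 to 6.94 in unirradiated cells. For 8 control probe sets of 25S ribosomal RNA it was 7.80 and 7.29 against 8.49 and 6.16, and the groups overlap. The part of ribosomal RNA carryover in the results was not tested.

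At 30 min, 1912 probe sets were called changed at an adjusted p under 0.05, which is 35.5% of those tested. Of these, 1045 (19.4%) were higher and 867 (16.1%) were lower. A change of at least 1 on the log2 scale was called for 313 higher (5.82%) and 310 lower (5.76%) probe sets, and of at least 2 for 82 higher (1.52%) and 43 lower (0.799%). The median change over all probe sets was 0.06. Without the second array at 30 min the count was 1074, and with only the 4 arrays of the comparison in the fit it was 1009. Calls that held when each of the 4 arrays was left out in turn numbered 853 (15.9%), of which 431 were higher (8.01%) and 422 lower (7.84%). The genes given below as risen or fallen at 30 min are among them unless stated otherwise.

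The 15 largest rises were in genes of several kinds, among them genes for growth on ethanol, acetate and lactate. ADH2, the alcohol dehydrogenase that oxidises ethanol, had a signal of 14.56 and 14.87 at 30 min and 8.19 and 7.86 in unirradiated cells. It rose by 6.69 ± 0.46 (SE, adjusted p = 4.03e-10), or 103-fold, to a level near the top of the scale. ADY2, an acetate transporter, was at 9.08 and 9.01 at 30 min against 3.81 and 3.08 in unirradiated cells, a rise of 5.60 ± 0.27 (adjusted p = 9.36e-13). JEN1, the transporter of lactate and pyruvate, was at 7.54 and 7.35 at 30 min and 3.47 and 3.10 in unirradiated cells, a rise of 4.16 ± 0.17 (adjusted p = 3.44e-14). For all 3 genes the arrays at 30 min lay far above those of unirradiated cells. MPC3, a subunit of the mitochondrial pyruvate carrier that serves respiratory growth, rose by 5.41 ± 0.32, and CIT3, a mitochondrial citrate synthase, by 4.11 ± 0.38. ATO2, of the same transporter family as ADY2, rose by 4.66 ± 0.47. FBP1, the gluconeogenic fructose-1,6-bisphosphatase, was at 5.06 and 5.70 at 30 min and at 2.76 and 2.63, close to background, in unirradiated cells.

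Of a list of 38 glucose-repressed genes, 27 rose, 1 fell and 10 were not called, with a median change of 1.44. Of these calls, 18 rises held without each array. The median signal of the list was 10.62 and 10.74 on the arrays at 30 min against 8.87 and 8.76 on those of unirradiated cells. Besides the genes above, SPG4, named for stationary phase, was at 12.78 and 13.57 at 30 min against 8.88 and 9.48 in unirradiated cells, and SPG1, of the same phase, rose by 3.50 ± 0.41, and the carnitine carrier CRC1 by 3.19 ± 0.54. ALD4, a mitochondrial aldehyde dehydrogenase that acts after Adh2, rose by 2.32 ± 0.45, and ACS1, an acetyl-CoA synthetase that acts on acetate, was at 13.39 on average at 30 min against 11.61 in unirradiated cells. The member that fell was SUC2, the invertase gene and a classic target of the Snf1 and Mig1 pathway, at a mean of 10.43 at 30 min against 11.09 in unirradiated cells (adjusted p = 0.0386), a call that ended without 1 array. ICL1, isocitrate lyase of the glyoxylate cycle, was not called (6.64 at 30 min against 6.13, adjusted p = 0.263).

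**Figure D1:**
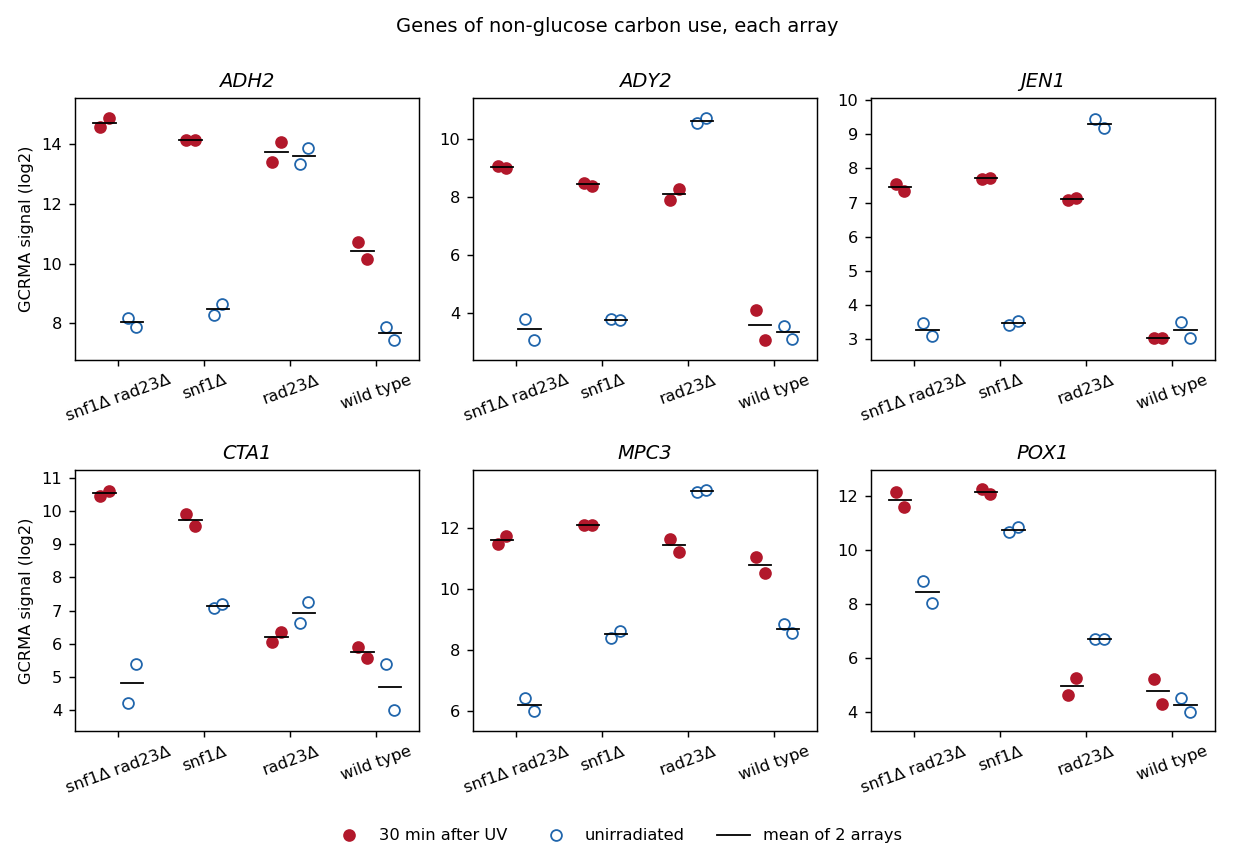
GCRMA signal on the log2 scale (vertical axis) of 6 genes on each array 30 min after UV (filled) and unirradiated (open) in 4 strains, with a line at the mean of 2 arrays. In snf1Δ rad23Δ every array at 30 min lies above both unirradiated arrays for all 6 genes, while in rad23Δ the unirradiated signal of ADY2, JEN1 and MPC3 is above that at 30 min.

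Genes of peroxisomes and fatty acid breakdown moved with them. Of 17 listed genes, 12 rose and 2 fell, with a median of 1.34, and all but 2 of the rises held without each array. The list shares 3 genes with the glucose-repressed one. CTA1, the peroxisomal catalase, was at 10.46 and 10.61 at 30 min against 4.22 and 5.39 in unirradiated cells, a rise of 5.73 ± 0.72 (adjusted p = 2.79e-06). The enzymes of β-oxidation rose too: POT1, the thiolase, by 3.59 ± 0.30, POX1, the acyl-CoA oxidase, by 3.43 ± 0.52, and FOX2, the multifunctional enzyme, by 1.17 ± 0.14. FAA2, a peroxisomal acyl-CoA synthetase, rose by 2.52 ± 0.15, and DCI1 and ECI1, isomerases for unsaturated fatty acids, by 2.75 ± 0.23 and 2.31 ± 0.21. The members that fell were regulators, and both are genes of 2000 bases or more. Of the 8 listed genes of that length 2 fell and 4 rose, and of the 9 shorter ones 0 fell and 8 rose. ADR1, which encodes an activator of ADH2 and of these peroxisomal genes, averaged 9.21 at 30 min against 11.01 in unirradiated cells, a change of -1.80 ± 0.19 with no overlap between arrays. OAF1, the oleate-responsive activator, changed by -1.18 ± 0.17.

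The other genes of the Snf1 pathway mostly fell or were not called. Of 22 listed genes, 2 rose (9.09%) and 7 fell (31.8%), with a median of -0.27, and 2 of the 22 are also in the lists above. The shares over all probe sets were 19.4% higher and 16.1% lower. In the Snf1 list 5 of 8 genes of 2000 bases or more fell, against 2 of 14 shorter ones. CYC8, the corepressor that works with Tup1, changed by -1.14 ± 0.18, NRG2, a repressor of glucose-repressed genes, by -1.31 ± 0.18 and TOS3, one of the upstream kinases of Snf1, by -1.01 ± 0.17. REG2, a regulatory subunit of the Glc7 phosphatase, rose by 2.05 ± 0.52, and SIP4, an activator of gluconeogenic genes, by 1.04 ± 0.36, and both calls ended without 1 array. CAT8, the activator of gluconeogenic genes, had 4.20 and 4.62 at 30 min and 5.35 and 6.05 in unirradiated cells, and was not called (adjusted p = 0.081). The MIG repressor genes were not called: MIG1 had a change of 0.51 ± 0.30 (adjusted p = 0.193), MIG2 of -0.21 ± 0.37 (adjusted p = 0.693) and MIG3 of -0.09 ± 0.17 (adjusted p = 0.699). The kinase partners SNF4, SIP1, SIP2 and GAL83 had changes between -0.12 and 0.27, none of them called. Of 15 hexose transport genes, 5 fell and 0 rose, among them the glucose sensor SNF3 at -1.10 ± 0.24 and its pathway's regulator STD1 at -0.80 ± 0.12.

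**Figure D2:**
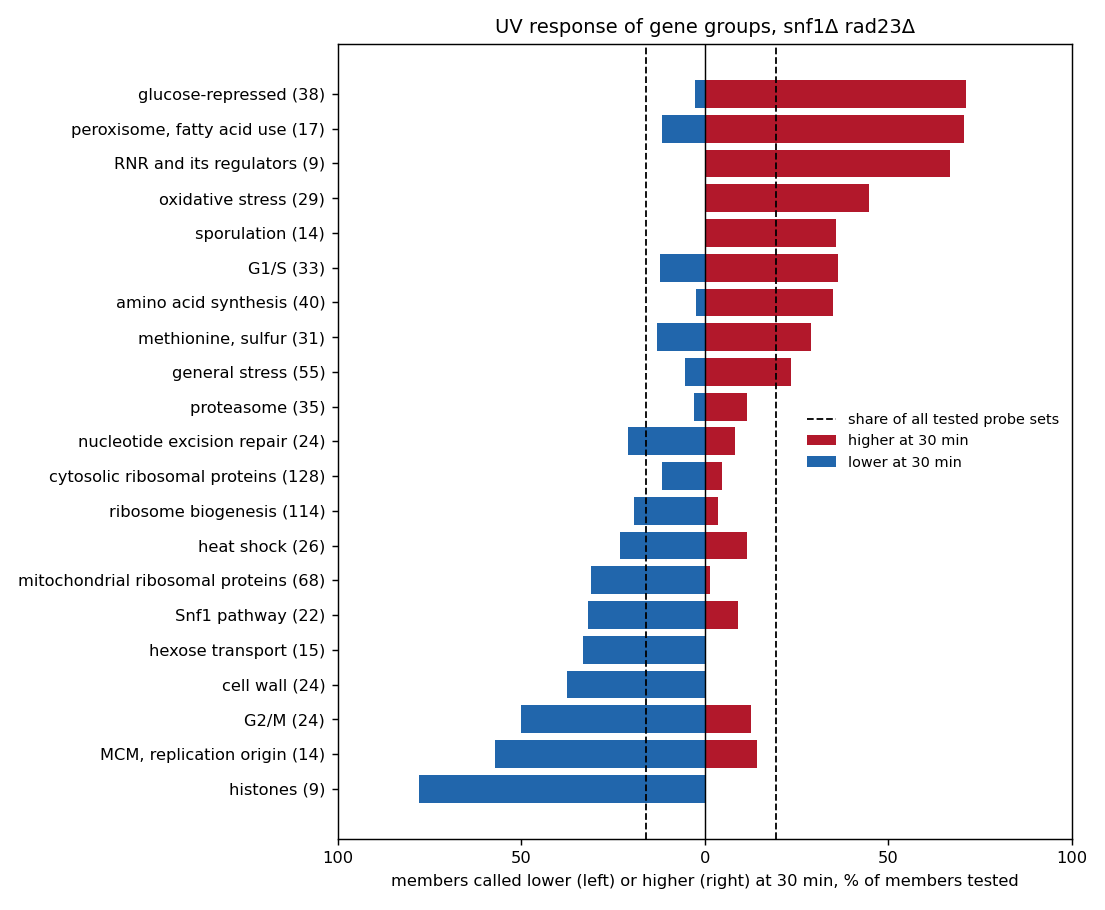
Share of the tested members of 21 gene groups (number tested in brackets) that were called higher (right) or lower (left) 30 min after UV in snf1Δ rad23Δ, with dashed lines at the shares over all tested probe sets, 19.4% higher and 16.1% lower. The glucose-repressed, peroxisomal and RNR groups lie far to the right of the dashed line, and histones, replication origin and G2/M genes far to its left.

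Damage-inducible genes rose. Of 9 genes of RNR and its regulators, 6 rose and 0 fell, with a median of 0.55. HUG1, an inhibitor of RNR and a marker of checkpoint activity, was at 10.65 and 10.91 at 30 min and 7.95 and 8.46 in unirradiated cells, a rise of 2.57 ± 0.44 (adjusted p = 0.000105). RNR3, the damage-inducible large subunit, was at 11.07 and 11.58 against 9.76 and 9.25, a rise of 1.82 ± 0.38 (adjusted p = 0.000718). The small subunits rose less, RNR4 by 0.55 ± 0.09 and RNR2 by 0.27 ± 0.08, and the call on RNR2 ended without 1 array. The checkpoint kinase gene DUN1 rose by 0.91 ± 0.14 and RFX1, which encodes the Crt1 repressor, by 0.80 ± 0.20. RNR1, the main large subunit, was at 13.05 and 13.33 at 30 min against 13.18 and 12.18 in unirradiated cells, and the groups overlap (adjusted p = 0.139). SML1 and DIF1, inhibitors of RNR, had changes of 0.12 ± 0.12 and -0.04 ± 0.18 and were not called. With only the 4 arrays of the comparison in the fit, the calls on RNR4 and RNR2 ended.

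PLM2, a damage-induced gene related to the G1/S regulator Tos4, was at 7.98 and 9.03 at 30 min against 4.23 and 4.67 in unirradiated cells, a rise of 4.05 ± 0.31 (adjusted p = 2.88e-09). DIN7, a nuclease gene induced by DNA damage, rose by 0.94 ± 0.18. Of 16 checkpoint genes, 3 rose (18.8%) and 3 fell (18.8%), beside 19.4% higher and 16.1% lower over all probe sets. None of the calls on checkpoint genes held without each array. The 3 falls were among the 8 members of 2000 bases or more, with 0 among the 8 shorter ones. The members that fell were the adaptor RAD9 (-1.59 ± 0.60), the kinase MEC1 (-0.82 ± 0.28) and MRC1 (-0.78 ± 0.25), while RAD24, which loads the checkpoint clamp, rose by 0.90 ± 0.24.

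**Figure D3:**
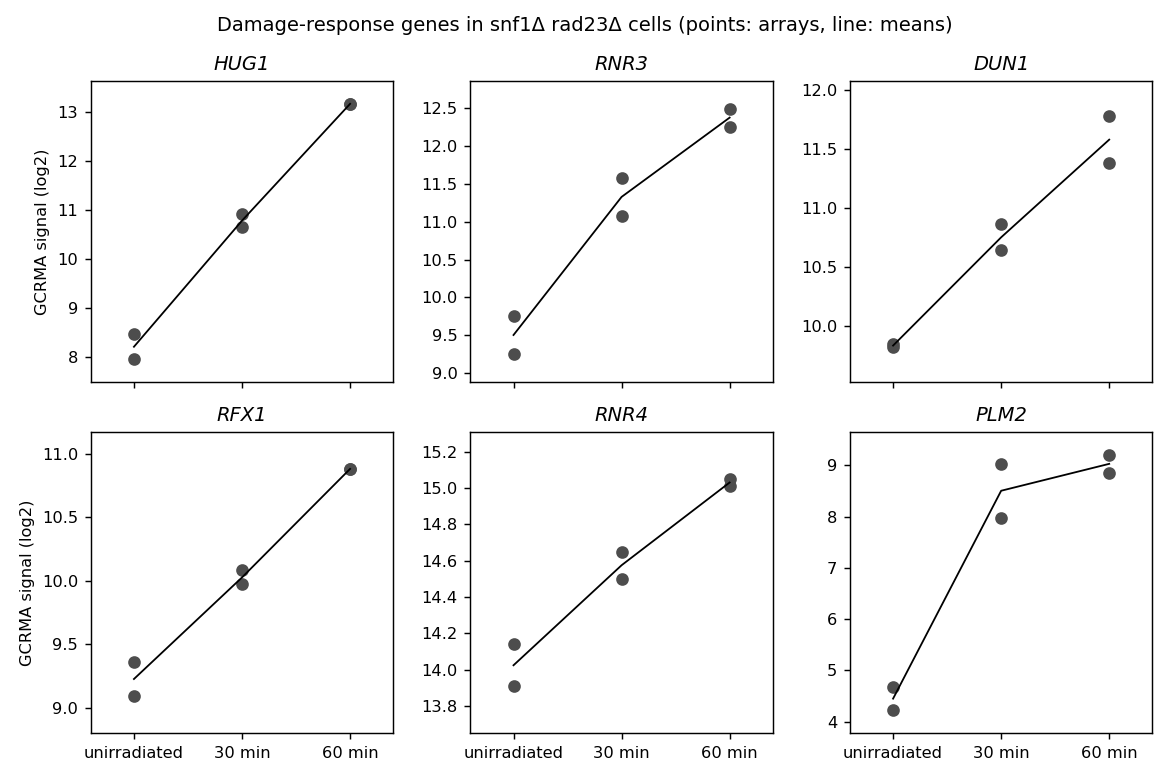
GCRMA signal on the log2 scale (vertical axis) of 6 damage-inducible genes in snf1Δ rad23Δ, unirradiated and 30 and 60 min after UV, with a point for each array and a line through the means. HUG1 has 7.95 and 8.46 in unirradiated cells, 10.65 and 10.91 at 30 min, and 13.17 and 13.16 at 60 min.

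Genes of nucleotide excision repair had a median change of 0.09. Of 24 tested, 2 rose (8.33%), 5 fell (20.8%) and 17 were not called, beside 19.4% higher and 16.1% lower over all probe sets. RAD4, the partner of the missing Rad23, was at 7.96 and 8.14 at 30 min against 8.55 and 8.72 in unirradiated cells (-0.58 ± 0.22, adjusted p = 0.0379), and RAD7, a subunit of the global repair complex, changed by -0.54 ± 0.16, both calls ending without 1 array. So did the call on RAD26, of transcription-coupled repair, which changed by -0.65 ± 0.25. TFB1, a core subunit of the repair and transcription factor TFIIH, fell by -0.69 ± 0.16 and MET18, which serves iron-sulfur protein assembly and TFIIH function, by -0.77 ± 0.16, and their calls held. TFB5, the smallest TFIIH subunit, rose by 0.87 ± 0.19 and CCL1, a cyclin of TFIIH, by 0.55 ± 0.21, of which the second call ended without 1 array. The incision genes RAD1, RAD2, RAD10 and RAD14 had changes of -0.20, 0.18, 0.39 and -0.05, none called. In other repair pathways, RMI1 and RAD55 of homologous recombination rose by 0.99 ± 0.15 and 1.05 ± 0.28, while the helicase SGS1, which acts with Rmi1, fell by -1.24 ± 0.18. The photolyase gene PHR1 was at 8.52 and 8.59 at 30 min against 9.09 and 9.42 in unirradiated cells and was not called (adjusted p = 0.129).

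Core histone genes fell together. Of 9 histone genes tested, 7 fell and 0 rose, with a median of -1.03, and all 7 calls held without each array. HTB2, an H2B gene, was at 11.49 and 11.32 at 30 min against 13.40 and 13.07 in unirradiated cells (-1.83 ± 0.34, adjusted p = 0.000212). HTA2, an H2A gene, was at 13.38 and 13.49 against 15.13 and 15.18 (-1.72 ± 0.26). The falls of HTA1, HTB1, HHT1, HHT2 and HHF1 lay between -1.55 and -0.68. The paired gene copies are near identical in sequence, so signal may be shared between them on the array. The H2A variant HTZ1 (0.17 ± 0.14) and the linker histone HHO1 (0.28 ± 0.25) were not called. In bulk cultures, fewer cells at a cell-cycle stage and less RNA per cell cannot be told apart.

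Other cell-cycle genes moved in both directions. Of 24 genes of G2 and mitosis, 12 fell (50%) and 3 rose (12.5%), with a median of -0.44. The shares over all probe sets were 16.1% lower and 19.4% higher. The mitotic cyclin CLB1 was at 9.85 and 9.86 at 30 min and 11.23 and 11.05 in unirradiated cells (-1.28 ± 0.26), and ASE1, which bundles spindle microtubules, was at 7.13 and 7.57 against 9.45 and 9.64 (-2.20 ± 0.28). MYO1, the myosin of the cytokinetic ring, and BUD4 and BUD3, which mark the bud site, changed by -2.48 ± 0.62, -1.96 ± 0.27 and -1.51 ± 0.21. ACM1, an inhibitor of the anaphase-promoting complex with Cdh1, rose by 1.51 ± 0.26. Of 33 genes of G1 and S phase, 12 rose (36.4%) and 4 fell (12.1%), with a median of 0.22. The S-phase cyclin CLB6 was at 10.13 and 9.48 at 30 min against 6.78 and 5.69 (3.57 ± 0.39), and the G1 cyclin PCL1 at 10.61 and 10.20 against 7.37 and 7.18 (3.13 ± 0.38), while the cohesin genes SMC3 and SMC1 fell by -1.58 ± 0.20 and -1.08 ± 0.16. Of 14 genes of the MCM helicase and replication origins, 8 fell (57.1%) and 2 rose (14.3%), among them MCM2 (-0.77 ± 0.16) and SLD2 (1.47 ± 0.32). In this list 6 of 8 genes of 2000 bases or more fell, against 2 of 6 shorter ones. FAR1, the inhibitor of G1 cyclin kinase, fell by -1.60 ± 0.16.

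Stress genes did not move as a block. Over all probe sets, 19.4% were higher and 16.1% lower, to which the shares of each list compare. Of 55 general stress genes, 13 rose (23.6%) and 3 fell (5.45%), with a median of 0.44, and 39 were not called. The largest rise was in SIP18, a desiccation stress gene, at 9.88 and 11.47 at 30 min against 5.44 and 6.03 in unirradiated cells (4.94 ± 0.53). Its relative GRE1 rose by 2.69 ± 0.52 and the aldehyde dehydrogenase ALD3 by 2.05 ± 0.34. GAC1, a Glc7 subunit for glycogen synthesis, fell by -2.52 ± 0.47. Of 29 oxidative stress genes, 13 rose (44.8%) and 0 fell, with a median of 0.43. Among the rises were CTA1, the transporter ATR1 (1.39 ± 0.28) and the glutathione synthetase GSH2 (0.75 ± 0.11). Of 26 heat shock genes, 3 rose (11.5%) and 6 fell (23.1%). HSP30, a plasma membrane heat shock protein, was at 9.41 and 9.75 at 30 min against 13.33 and 13.54, a fall of -3.86 ± 0.83 (adjusted p = 0.000912). Of 35 proteasome genes, the destination of the ubiquitinated cargo of Rad23, 4 rose (11.4%) and 1 fell (2.86%), with a median of 0.29.

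Of 31 methionine and sulfur genes, 9 rose (29%) and 4 fell (12.9%), beside 19.4% and 16.1% over all probe sets. The sulfate transporter SUL1 was at 7.64 and 7.59 at 30 min against 4.20 and 4.16 in unirradiated cells (3.44 ± 0.37, adjusted p = 2.99e-07), and MMP1, which takes up S-methylmethionine, rose by 2.32 ± 0.36. Of 40 amino acid genes, 14 rose (35%) and 1 fell (2.5%), with SER3, of serine synthesis, at 2.34 ± 0.31 and LYS1 at 1.26 ± 0.21. INO1, the inositol-phosphate synthase, rose by 2.90 ± 0.66 while its activator INO2 fell by -1.32 ± 0.25. Of 24 cell wall genes, 9 fell and 0 rose, with a median of -0.47, among them the cell integrity factor RLM1 (-1.31 ± 0.25) and the chitin synthases CHS3 (-1.11 ± 0.16) and CHS1 (-1.05 ± 0.15). Of 26 iron genes, 6 fell and 2 rose, among them TIS11, which degrades mRNAs in iron shortage (-2.08 ± 0.46), and the reductase FRE1 (-1.66 ± 0.36). Of 14 sporulation genes, 5 rose and 0 fell, and the median of 0.53 was 0.19 under quantile normalization and 0.20 to 0.90 when an array was left out.

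In the translation machinery, cytosolic ribosomal protein genes had a median close to that of all probe sets, 0.06, and mitochondrial ones a lower median. Of 128 cytosolic ribosomal protein genes, 6 rose (4.69%) and 15 fell (11.7%), with a median of 0.01. The shares over all probe sets were 19.4% higher and 16.1% lower. Of 114 ribosome biogenesis genes, 4 rose (3.51%) and 22 fell (19.3%), with a median of -0.13. The members with the largest falls were UTP20, at 9.76 and 9.66 at 30 min against 11.86 and 11.86 (-2.15 ± 0.24), and UTP22 (-1.72 ± 0.21), both of the small subunit processome. Of 68 mitochondrial ribosomal protein genes, 21 fell (30.9%) and 1 rose (1.47%), with a median of -0.30, and 6 of the falls held without each array. In RNA polymerases I and III, the largest subunit genes RPO31 and RPA190 fell by -1.60 ± 0.16 and -0.98 ± 0.23, the second call ending without 1 array, while the small subunit genes RPC11 and RPC10 rose by 0.80 ± 0.13 and 0.66 ± 0.14.

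Long genes fell far more often than short ones. Among 188 genes over 4000 bases, introns included, 130 fell and 1 rose, or 69.1% and 0.532%, and the median change was -0.81. Their median signal was 10.36 and 10.04 at 30 min against 11.01 and 11.11 in unirradiated cells. Of the 595 genes under 500 bases, 25 fell and 173 rose, or 4.2% and 29.1%, with a median of 0.24. In between, the medians were 0.19 for 500 to 1000 bases, 0.09 for 1000 to 2000 and -0.30 for 2000 to 4000, where 35.9% fell. The median over 4000 bases was -0.93 to -0.62 when each array was left out in turn, and 86 of the 130 falls held in all of these fits. Over all genes the rank correlation of length and change was -0.39, a description across 5337 genes that are not independent replicates.

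The long genes that fell most act in different processes. TRA1, the 11235-base gene of a large subunit of the SAGA and NuA4 histone acetyltransferases, averaged 6.97 at 30 min against 10.72 in unirradiated cells (-3.75 ± 0.45, adjusted p = 1.24e-06). MOT1, which removes TATA-binding protein from DNA, was at 8.06 and 7.24 against 10.99 and 11.02 (-3.36 ± 0.47). The nuclear basket gene MLP2 fell by -3.17 ± 0.30 and the formin gene BNI1, which assembles actin cables, by -2.69 ± 0.22. In each of these genes both arrays at 30 min lay below both unirradiated ones. The 1 long gene called higher, chosen after its value was seen, was the transporter gene PDR18 (0.43 ± 0.16, adjusted p = 0.0388), and its call ended without 1 array. Over all genes, 502 of 1223 genes of 2000 bases or more fell, against 361 of 4114 shorter ones. Several lists held the same division, which is thus not particular to them. In ribosome biogenesis, 14 of 28 genes of 2000 bases or more fell, against 8 of 86 shorter ones. In G2 and mitosis, 10 of 14 longer genes fell against 2 of 10 shorter ones, and among G1 and S phase genes 4 of 11 longer ones fell against 0 of 22 shorter ones. The glucose-repressed genes did not follow it: 5 of 7 longer and 22 of 31 shorter members rose. Other lists showed little of it or the reverse. In hexose transport 1 of 3 longer and 4 of 12 shorter members fell, and among iron genes 2 of 7 and 4 of 19. Among flocculin and filamentous growth genes, 2 of 9 longer and 3 of 6 shorter members fell. The division was also read within classes of signal. Among genes with an unirradiated signal of 10 to 12, the median change was -0.44 for 538 genes of 2000 bases or more and 0.22 for 647 under 1000 bases, and for signals over 12 it was -0.42 for 239 and 0.12 for 684. For signals of 8 to 10 it was -0.32 for 363 and 0.30 for 412. Under 8 the longer genes did not fall as a class: the median was 0.24 for 83 of them, with 16 higher and 13 lower, and 0.54 for 259 genes under 1000 bases. The 3′ minus 5′ signal was higher at 30 min with no overlap for 3 of 7 control genes, as given above, and its part in the fall of long genes was not tested.

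**Figure D4:**
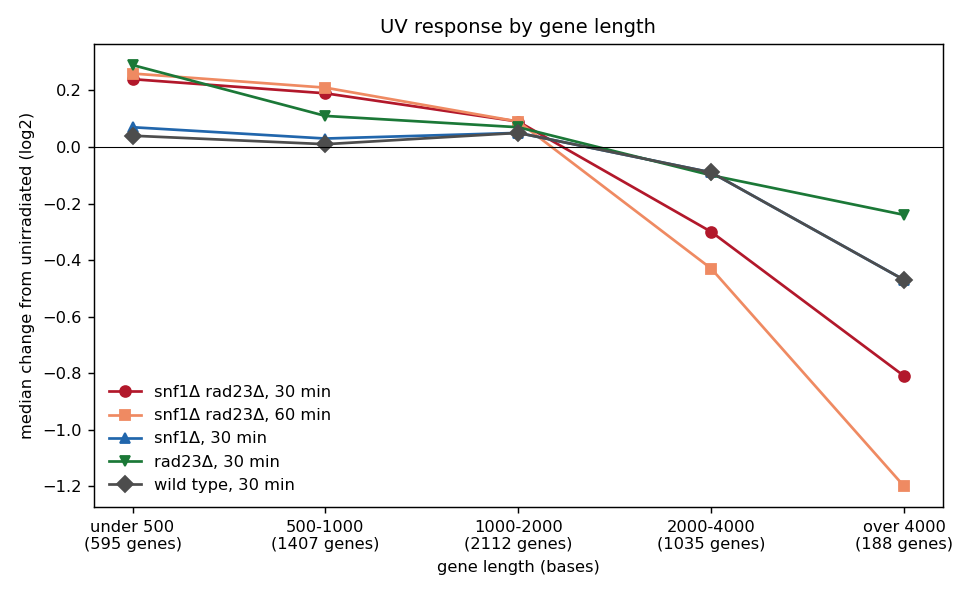
Median change from unirradiated cells on the log2 scale (vertical axis) of genes in 5 length classes (horizontal axis, with gene numbers), for snf1Δ rad23Δ at 30 and 60 min and for snf1Δ, rad23Δ and wild type at 30 min. The class over 4000 bases has medians of -0.81 and -1.20 in snf1Δ rad23Δ at 30 and 60 min, and of -0.47, -0.24 and -0.47 in snf1Δ, rad23Δ and wild type.

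The medians of genes over 4000 bases at 30 min were -0.81 in the double deletion, -0.47 in snf1Δ, -0.24 in rad23Δ and -0.47 in wild type, each against its own unirradiated cells. Tested gene by gene, the response of the double deletion was lower for 11 of the 188 genes and higher for 1 than that of snf1Δ, lower for 20 and higher for 1 than that of rad23Δ, and lower for 6 and higher for 0 than that of wild type. RPO41, the 4056-base gene of the mitochondrial RNA polymerase, was at 9.16 and 9.25 at 30 min and 11.30 and 11.53 in unirradiated double deletion cells, and at 9.91 and 9.91 against 10.91 and 10.89 in wild type. Its responses differed by -1.22 ± 0.25 (adjusted p = 0.00643).

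Falls among shorter genes were of mixed kinds. HMS1, a transcription factor gene tied to filamentous growth, was at 2.73 and 2.84 at 30 min, close to background, against 7.28 and 7.89 in unirradiated cells (-4.80 ± 0.52). MGA1, also tied to filamentous growth, fell by -2.58 ± 0.40, RGS2, a regulator of the G protein of glucose sensing, by -3.25 ± 0.67, and the zinc finger gene STP4 by -3.10 ± 0.52. YMR315W-A, an uncharacterised reading frame of 108 bases, was at 2.44 and 2.81 against 6.94 and 7.02 (-4.36 ± 0.27). Falls larger than that of RGS2 were also found in HSP30, given above, and in TDA6, which changed by -3.47. YPR015C, a zinc finger gene, moved the other way, at 8.42 and 8.68 at 30 min against 4.46 and 4.27 (4.19 ± 0.39).

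Next, the response of the double deletion was set against that of each single deletion and of wild type at 30 min. These 3 differences share the 4 arrays of the double deletion, and each also holds any difference between the strains before UV. Against snf1Δ, 264 probe sets (4.91%) responded differently, 121 higher (2.25%) and 143 lower (2.66%). Against rad23Δ the number was 247 (4.59%), 166 higher (3.09%) and 81 lower (1.51%). Against wild type it was 170 (3.16%), 107 higher (1.99%) and 63 lower (1.17%), or 86 and 79 under quantile normalization.

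The glucose-repressed genes with the largest rises in the double deletion also rose in snf1Δ. ADH2 was at 14.15 and 14.14 at 30 min and at 8.29 and 8.64 in unirradiated snf1Δ, so that its response there was 5.68 against 6.69 in the double deletion. ADY2, JEN1, ATO2 and CIT3 had responses of 4.66, 4.23, 4.22 and 3.58 in snf1Δ. The list's median response was 0.35 in snf1Δ, and 8 of its 38 members responded more strongly in the double deletion. SPG1 was at 8.15 and 8.92 at 30 min against 4.86 and 5.20 in the double deletion, and at 7.35 and 6.89 against 7.32 and 7.44 in snf1Δ, a difference of 3.76 ± 0.57 (adjusted p = 6.79e-04). PEX18, which imports thiolase into peroxisomes, was at 8.06 and 8.42 against 5.95 and 6.93 in the double deletion and at 6.87 and 5.95 against 8.01 and 7.93 in snf1Δ, a difference of 3.37 ± 0.52. SPS100, a spore wall gene, reached 9.12 and 9.47 at 30 min in the double deletion and 9.10 and 9.40 in snf1Δ, but stood at 5.63 and 5.45 in unirradiated double deletion cells and at 9.96 and 10.08 in unirradiated snf1Δ (4.52 ± 0.50, adjusted p = 1.33e-05). The spore protease gene RRT12 (3.51 ± 0.66) and the meiotic recombination gene REC102 (3.19 ± 0.62) also differed. RRT12 was at 6.54 and 7.82 at 30 min in the double deletion and at 2.76 and 2.67, close to background, before UV. In snf1Δ it was at 5.28 and 6.30 against 4.78 and 4.87.

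**Figure D5:**
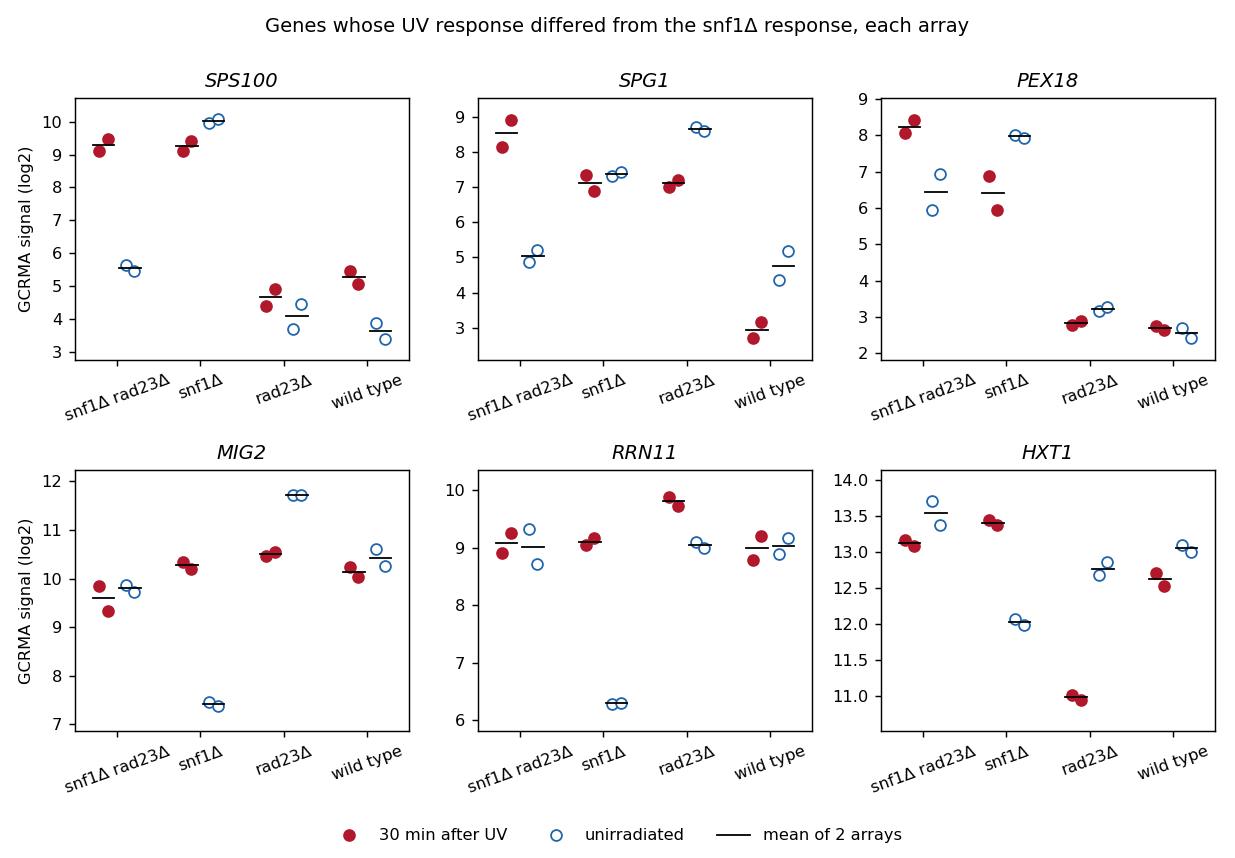
GCRMA signal on the log2 scale (vertical axis) of 6 genes on each array 30 min after UV (filled) and unirradiated (open) in 4 strains, with a line at the mean of 2 arrays. For SPS100, MIG2, RRN11 and HXT1 the arrays at 30 min lie within 1 of each other between snf1Δ rad23Δ and snf1Δ, and the unirradiated arrays of these strains lie farther apart.

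On the other side, several genes rose in snf1Δ and were not called in the double deletion. MIG2, a glucose repressor, was at 9.84 and 9.34 at 30 min against 9.87 and 9.73 in the double deletion, and at 10.34 and 10.20 against 7.46 and 7.37 in snf1Δ, a difference of -3.07 ± 0.52 (adjusted p = 0.00185). RRN11, of the RNA polymerase I core factor, was at 8.90 and 9.25 against 9.32 and 8.71 in the double deletion and at 9.04 and 9.16 against 6.29 and 6.31 in snf1Δ (-2.74 ± 0.30). The glucose transporter HXT1 (-1.80 ± 0.34), the weak acid exporter PDR12 (-1.73 ± 0.29) and RSA4, of large subunit assembly (-2.20 ± 0.42), differed likewise, and the call on RSA4 ended with only the arrays of the comparison in the fit. In MIG2, RRN11 and HXT1 the strains were closer at 30 min than before UV. Of the 114 ribosome biogenesis genes, 16 responded lower in the double deletion than in snf1Δ and 0 higher. The number of differences from snf1Δ was 67 to 129 without any 1 of the snf1Δ arrays, 107 without the first unirradiated and 83 without the second 30 min array of the double deletion, and 630 with array weights.

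Against rad23Δ, 19 of the 38 glucose-repressed genes responded higher in the double deletion and 0 lower. Unirradiated rad23Δ already had high levels of these genes. ADY2 was at 9.08 and 9.01 at 30 min against 3.81 and 3.08 in the double deletion and at 7.91 and 8.29 against 10.55 and 10.74 in rad23Δ, a difference of 8.14 ± 0.39 (adjusted p = 2.55e-13). JEN1 differed by 6.37 ± 0.24 and MPC3 by 7.18 ± 0.46, with the same arrangement. ADH2 was at 13.39 and 14.07 at 30 min and 13.34 and 13.88 in unirradiated rad23Δ, a difference of 6.56 ± 0.65, and its level at 30 min was close to that of the double deletion. CTA1 was at 6.06 and 6.36 at 30 min and 6.61 and 7.25 in unirradiated rad23Δ, and differed by 6.45 ± 1.02. RGI2, a gene of respiratory growth, was at 5.10 and 4.50 at 30 min in the double deletion and at background before UV (2.12 and 2.12), so the size of its rise has only a lower limit. Lower in the double deletion were TOS3 (-1.48 ± 0.24), the chromatin remodeller gene INO80 (-1.33 ± 0.23), ECM3 (-1.26 ± 0.25), the forkhead factor FKH2 (-1.28 ± 0.25) and the splicing factor SPP382 (-1.11 ± 0.20). Of these, the calls on TOS3, INO80 and ECM3 ended with only the arrays of the comparison. The count was 155 and 144 without an unirradiated rad23Δ array, 126 without the second rad23Δ array at 30 min, and 120 without the second double deletion array at 30 min.

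Against wild type, 16 of the 38 glucose-repressed genes and 8 of the 17 peroxisomal genes responded higher in the double deletion, and 0 and 1 lower. ADY2 was at 9.08 and 9.01 against 3.81 and 3.08 in the double deletion and at 4.11 and 3.09 against 3.57 and 3.12 in wild type, a difference of 5.33 ± 0.39 (adjusted p = 3.97e-09). JEN1 was at 3.03 and 3.03 at 30 min and 3.52 and 3.03 in unirradiated wild type (4.41 ± 0.24). SPG1 was at 2.70 and 3.16 against 4.36 and 5.17 in wild type (5.33 ± 0.57), and SIP18 at 4.56 and 5.60 against 4.13 and 4.23 (4.05 ± 0.75, a call that ended with only the arrays of the comparison). For these 4 genes the arrays of the 2 strains were closer to each other before UV than at 30 min, when those of the double deletion lay far above. YGR109W-A, a retrotransposon gene present in near-identical copies, differed by 3.96 ± 0.73. Responding lower were FLO1, a flocculin that was at 13.23 and 13.17 in unirradiated double deletion cells and 6.09 and 6.29 in unirradiated wild type (-2.39 ± 0.43), TOS3 (-2.02 ± 0.24), the amino acid permease BAP3 (-1.76 ± 0.32) and the weak acid stress factor WAR1 (-1.15 ± 0.21), of which the calls on BAP3 and WAR1 ended with only the arrays of the comparison. The count was 57 to 83 without any 1 of the wild-type arrays and 49 without the second double deletion array at 30 min.

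By 60 min many of these changes had moved on. Between 30 and 60 min, 1077 probe sets (20%) changed in the double deletion, 452 (8.4%) higher and 625 (11.6%) lower at 60 min, or 549 and 567 under quantile normalization. The glucose-repressed genes turned back: 17 of 38 were lower at 60 min than at 30 min and 2 higher. The median signal of the list was 8.87 and 8.76 in unirradiated cells, 10.62 and 10.74 at 30 min, and 9.76 and 9.32 at 60 min. POX1 was at 8.86 and 8.03 in unirradiated cells, 12.16 and 11.59 at 30 min, and 7.83 and 7.74 at 60 min, a fall of -4.09 ± 0.52 from 30 min (adjusted p = 1.56e-05). JEN1 fell by -3.49 ± 0.17, CIT3 by -3.42 ± 0.38, FAA2 by -2.75 ± 0.15 and ADY2 by -2.55 ± 0.27, of which the call on CIT3 ended with only the arrays of these times. ADH2 did not follow: it was at 14.56 and 14.87 at 30 min and 14.14 and 14.24 at 60 min (-0.53 ± 0.46, adjusted p = 0.44).

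Several of the damage genes went on rising. HUG1 was higher at 60 min than at 30 min by 2.39 ± 0.44 (adjusted p = 8.09e-04), DUN1 by 0.83 ± 0.14, RFX1 by 0.86 ± 0.20, RNR2 by 0.51 ± 0.08 and RNR4 by 0.45 ± 0.09, and 5 of the 9 RNR genes in all. With only the 4 arrays of these times in the fit, the calls on DUN1, RFX1, RNR2 and RNR4 ended. RNR3 had 12.49 and 12.25 at 60 min and was not called against 30 min (adjusted p = 0.0561). PLM2, at 9.20 and 8.86 at 60 min, was not called either (0.53 ± 0.31, adjusted p = 0.237). Of 26 heat shock genes, 21 were higher at 60 min than at 30 min and 0 lower. HSP30 was at 13.33 and 13.54 in unirradiated cells, 9.41 and 9.75 at 30 min, and 12.57 and 12.60 at 60 min, and its rise over the last interval was called (adjusted p = 0.0141), but not with array weights or without 1 array. Mitochondrial ribosomal protein genes rose for 20 of 68, and cytosolic ones fell for 51 of 128. The median of genes over 4000 bases was -1.20 at 60 min against unirradiated cells, and 57 of the 188 fell further while 3 rose. Among the rises from 30 to 60 min, REC104, of meiotic recombination, was at 6.98 and 6.28 in unirradiated cells, 8.54 and 9.26 at 30 min, and 11.98 and 12.25 at 60 min, and the aquaporin AQY1 was at 2.87 and 2.71, 4.38 and 3.84, and 7.72 and 6.94. Over 2-fold differences between the 2 arrays at 60 min were found for 282 probe sets. The count of changes was 469 without the first array at 30 min, 591 without the first at 60 min, 508 with array weights, and 60 with only the 4 arrays of the comparison.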

How the data were processed

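Total RNA of each sample was hybridised to 1 array. The deposited values are log2 signals made by the authors with GCRMA 2.10.0 under R 2.6.2, per the submitters' processing notes. GCRMA sets all arrays to 1 distribution, which removes a global shift.

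Of 10928 probe sets, 5498 matched a gene of the R64 annotation, and 118 of these that did not reach a signal of 4 on 2 or more arrays were left out. Background is the 95th percentile of the signals of probe sets with no R64 gene (2.13 to 2.16 on the arrays of the double deletion). For 42 genes with several probe sets, the brightest was used. One mean per group was estimated over the whole set of 41 samples (limma 3.58.1, R 4.3.3), and Benjamini-Hochberg adjustment covered all 5380 probe sets of a contrast. Errors after ± are standard errors of log2 differences from 2 arrays a group, which bounds how precise they can be. The procedure was run on simulated data in which a probe set had the same spread in all groups. Such data cannot show how it performs where the spread differs between groups.

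The comparison, the 40 gene lists and their members were chosen with earlier results of these data known. Genes named were the deleted genes, up to 15 rises and 15 falls that do not overlap and hold without each array, all members of the RNR, excision repair, histone, Snf1, mating and marker lists, up to 6 members of each other list, and up to 10 each way for the other contrasts. Of those 10, 5 were taken for the strain differences, a narrowing made after values were seen. Their calls held without each array, and each group mean was over 0.2 above the highest background of any array, 2.19. ACS1, ALD4, CRC1, FBP1, FOX2, ICL1, OAF1, PDR18 and SUC2 were named outside this rule after their values were seen. MLP1, a nuclear pore gene, and an alias of MET18 were dropped from the cell wall and repair lists after values were seen. Alternatives covered the filter (none or 6), the scaling (quantile or median), the prior, weights per array, fits on fewer arrays and a block for the replicate number. The labels do not say that replicate numbers pair the arrays. Deviations of same-numbered arrays of the double deletion correlated at 0.063 between 30 min and unirradiated and at 0.483 between 60 and 30 min. Between 30 min and unirradiated they correlated at 0.228 in snf1Δ, 0.504 in rad23Δ and 0.503 in wild type. Over all pairs of the groups compared here, within and between strains, the range was -0.34 to 0.504. The numbers were not treated as pairs, since the labels give no pairing. Pairs of groups from different strains cannot decide whether arrays pair within a strain. Nor can the replicate block, which fits a shift common to all strains, so a pairing within strains remains possible.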

Additional observations from a re-analysis of the deposited data

Results flagged for a closer look

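The difference between the response of the double deletion and that of another strain was tested itself in each case below. It was called for 264 probe sets against snf1Δ, 247 against rad23Δ and 170 against wild type. Against snf1Δ the named genes were SPS100 (4.52), SPG1 (3.76), RRT12 (3.51), PEX18 (3.37), REC102 (3.19), MIG2 (-3.07), RRN11 (-2.74), RSA4 (-2.20), HXT1 (-1.80) and PDR12 (-1.73), as differences of log2 responses. Against rad23Δ they were ADY2 (8.14), MPC3 (7.18), ADH2 (6.56), CTA1 (6.45), JEN1 (6.37), TOS3 (-1.48), INO80 (-1.33), FKH2 (-1.28), ECM3 (-1.26) and SPP382 (-1.11). Against wild type they were ADY2 (5.33), SPG1 (5.33), JEN1 (4.41), SIP18 (4.05), YGR109W-A (3.96), FLO1 (-2.39), TOS3 (-2.02), BAP3 (-1.76), RPO41 (-1.22) and WAR1 (-1.15). In unirradiated cells ADY2, JEN1 and MPC3 stood above their level at 30 min in rad23Δ, which enters their differences.

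In data outside the comparisons, the mean of the 11 control probe sets for 18S ribosomal RNA was 2.42 higher at 30 min than in unirradiated cells on the log2 scale, and all 11 were higher on both arrays. Their means were 9.10 and 7.93 at 30 min against 6.94 and 5.26 in unirradiated cells. The 8 control probe sets for 25S ribosomal RNA did not share this rise. Their mean was 0.22 higher with overlap between the groups, and 2 of the 8 were higher on both arrays. Among 214 probe sets with no gene listed that reached the signal filter, 22 were higher at 30 min by at least 1 with no overlap between the arrays, and 13 were lower.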

How the results depend on the processing

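The count of 1912 changes at 30 min was 1009 with only the arrays of the comparison in the fit, and 1074 to 1748 when an array was left out. No filter, the stricter filter, quantile normalization, median centring, the intensity trend, array weights and the replicate block gave 1673 to 1958, and the replicate block 1958. Differences from snf1Δ were 630 with array weights and 67 to 396 without 1 array, with 287 under the replicate block. Differences from rad23Δ were 151 with the arrays of the comparison alone and 120 to 304 without 1 array, with 248 under the block. Differences from wild type were 94 with the arrays of the comparison alone and 49 to 250 without 1 array, with 171 under the block. Changes from 30 to 60 min were 508 with array weights, 60 with the arrays of the comparison alone and 469 to 1096 without 1 array, with 1101 under the block. The block changed no count by over 1.5 times. Over all probe sets, 2 called at 30 min had the opposite sign under quantile normalization. Among the named genes and list medians recomputed, no call changed sign, 400 values lost their call, 73 gained one and 28 medians of 13 lists moved by more than the spread between arrays. The causes were not tested. With 2 arrays per group, a gene's call rests on spread borrowed from the other groups.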
